A study of Rattus norvegicus with 24 samples.

Results

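The genes described here are 10 that encode inflammatory cytokines and the chemokines that draw monocytes, with a receptor: Il1b, Il1a, Il1rn, Il18, Tnf, Ccl2, Ccl7, Ccl3, Ccl4 and Ccr2. They were chosen by name, as the rows whose gene symbol is one of these, among 16881 distinct symbols. Of the 10, 9 had a row and 8 had enough reads to be tested among 11426 tested genes. Ccl4 was too low to test, with 48 reads in all 24 libraries together and none in 9 of them. Ccr2 was not analysed here.

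The libraries came from rat lung and fell into 8 groups of 3. The rats had been exposed repeatedly to whole-cigarette smoke condensate (WCSC, the material collected from the smoke of burnt cigarettes) at 5, 10 or 20 mg/mL, or were controls. Each was examined at 6 and at 12 days, so that the design asks how expression in the lung depends on the dose and on the length of exposure. All groups carry the genotype label WT, and no strain, age or sex, no route and no vehicle is stated for any of them. The labels do not say that the 3 libraries of a group came from separate animals, so the p-values measure only the spread between these libraries, which may be technical. Each library was made from a whole piece of tissue, in which fewer cells of a type and less RNA per cell cannot be told apart.

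Total counts ranged from 4795667 to 11109713 per library, with a median of 6840815. Levels are given as CPM, the share of a library's counts that fell on the gene, after adjusting the library's total by the trimmed mean of M values (TMM). When all libraries were thinned to the same depth, 8 of them had 11461 to 11753 detected genes, against 11952 to 12487 in the other 16. Those 8 are replicates 1 and 2 of 5 mg/mL and of 10 mg/mL, replicate 2 of 20 mg/mL and replicate 1 of the controls at 6 days, with replicate 3 of 20 mg/mL and replicate 1 of the controls at 12 days. Replicate 2 of 20 mg/mL at 12 days also stood apart, with a summed level of heart muscle markers of 3474 CPM, against at most 222.5 CPM in the other libraries. The lung label was checked against alveolar epithelial markers, whose summed level ranged from 9646 CPM, in that same library, to 37522 CPM, with 11 of the 12 listed genes having a row. Marco, a scavenger receptor used as a marker of alveolar macrophages, was at 0 in all 24 libraries.

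IL-1beta and IL-1alpha, the products of Il1b and Il1a, bind the same receptor and start a response that ends in the transcription factor NF-kappaB, while the product of Il1rn occupies that receptor without signalling. IL-1beta and IL-18 are made as precursors that inflammasome-activated caspase-1 cleaves, and TNF is a membrane-bound cytokine released by the protease ADAM17. CCL2 and CCL7 bind CCR2, the receptor that brings monocytes out of the bone marrow and into inflamed tissue, and CCL3 and CCL4 attract monocytes, macrophages and T cells. In the lung, alveolar and recruited macrophages are a source of most of these.

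The sequences before the transcription starts of 3 members are shown, those of Il1b and Tnf, whose values are compared between the days below, and that of Ccl7, the neighbour of Ccl2. They are from RefSeq on build GRCr8, are written 5′ to 3′ on the strand of the gene, and cover the 250 bases that end at the start site. They lie at chr3:137036582-137036831 on the minus strand for Il1b, at chr20:3626435-3626684 on the plus strand for Tnf, and at chr10:67513845-67514094 on the plus strand for Ccl7. Capitals mark the TATA box letters TATAAA, the AP-1 letters TGANTCA, and the NF-kappaB motif, each searched on both strands.

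Il1b: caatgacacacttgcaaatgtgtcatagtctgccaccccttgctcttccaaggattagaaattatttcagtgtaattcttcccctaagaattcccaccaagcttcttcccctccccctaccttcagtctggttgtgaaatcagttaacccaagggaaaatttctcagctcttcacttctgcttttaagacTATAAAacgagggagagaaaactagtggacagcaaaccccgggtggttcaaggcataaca
Tnf: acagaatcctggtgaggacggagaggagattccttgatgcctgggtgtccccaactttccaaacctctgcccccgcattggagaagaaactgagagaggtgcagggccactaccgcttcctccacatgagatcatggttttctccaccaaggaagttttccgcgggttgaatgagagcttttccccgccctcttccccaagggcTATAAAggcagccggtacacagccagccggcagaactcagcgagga
Ccl7: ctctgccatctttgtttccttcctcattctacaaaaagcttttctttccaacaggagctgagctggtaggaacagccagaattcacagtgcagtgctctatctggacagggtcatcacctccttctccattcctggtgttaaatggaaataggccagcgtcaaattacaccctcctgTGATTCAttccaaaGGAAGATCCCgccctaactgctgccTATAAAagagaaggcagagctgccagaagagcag

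All 3 hold TATAAA, beginning 60 bases before the start in Il1b, 46 in Tnf and 34 in Ccl7. Of 33469 RefSeq promoter windows of 300 bases, 50 of them after the start site, 14.2% hold these letters. Ccl7 alone of the 3 also holds TGANTCA, as 7.33% of the windows do, and an NF-kappaB motif, as 7.51% do. The AP-1 letters begin 73 bases and the NF-kappaB motif 59 bases before its start, without overlap. Promoter windows were matched for 7 of the 10 members. A match of letters is not shown to be a site in use, and its absence says only that these letters are not in this window.

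No member passed the adjusted threshold of 0.05 at any dose on either day (edgeR's quasi-likelihood test, two-sided, with Benjamini-Hochberg adjustment over the 11426 genes). In each of the 6 comparisons of a dose with control, and with the mean of the 3 doses against control on either day, 0 of 8 members passed, as did 0% of all genes. At an unadjusted p under 0.05, the members that passed at 6 days numbered 1 at 5 mg/mL (4.69% of all genes passed), 1 at 10 mg/mL (2.7%) and 2 at 20 mg/mL (4.07%). At 12 days the 5 mg/mL comparison had 1 such member (1.25%), that of 10 mg/mL had 2 (2.09%) and that of 20 mg/mL had 1 (3.68%). The values below are therefore levels with their spread, and fold changes with their 95% intervals, and none is a called change.

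**Figure D1:**
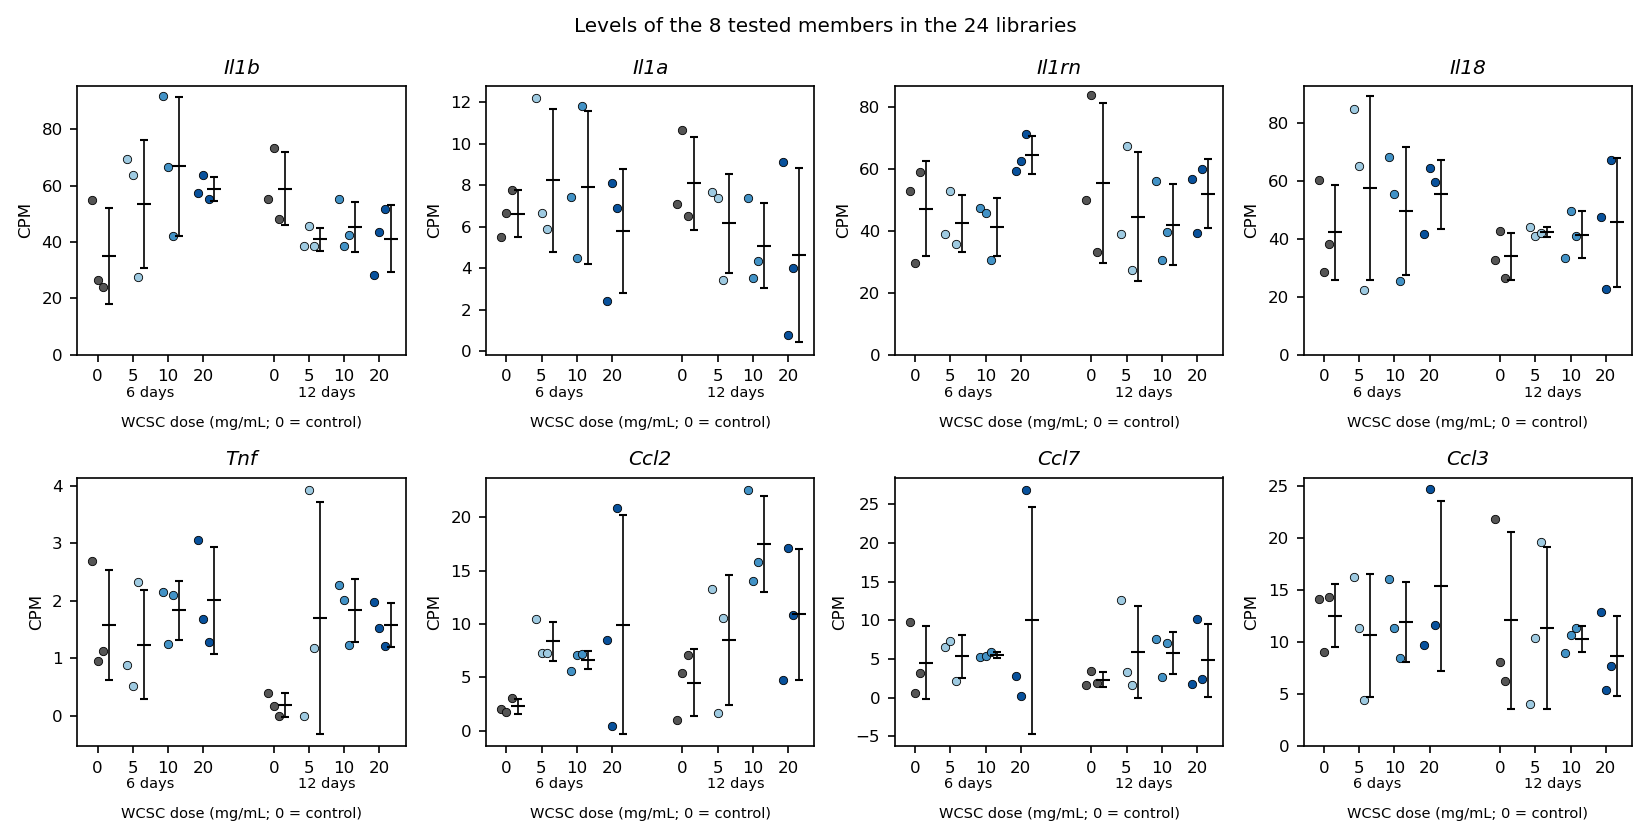
Levels of the 8 tested members in CPM, with 1 point per library, against the WCSC dose at 6 days (left in each panel) and 12 days (right). Bars to the right of the points show the mean ± SD of 3 libraries. Ccl2 in the 10 mg/mL libraries lay above every control of the same day, and Tnf in the 12-day controls lay between 0 and 0.405 CPM.

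Il1b encodes IL-1beta, the main secreted IL-1. At 6 days it was at 54.9, 26.5 and 24.0 CPM in the control libraries, at 69.4, 63.9 and 27.6 CPM at 5 mg/mL, at 91.7, 66.8 and 42.3 CPM at 10 mg/mL, and at 57.4, 63.7 and 55.4 CPM at 20 mg/mL. All 3 libraries at 20 mg/mL were above every control, though by little, with the lowest at 55.4 CPM and the highest control at 54.9 CPM. The lower doses overlapped the controls through their replicate 3. Il1b was thereby 1 of 2 members, with Il1rn, whose groups did not overlap at 20 mg/mL, against 4.07% of all genes that were higher in this way. In all, 7 of the 9 exposed libraries were above every control. The log2 fold change against control was 0.62 at 5 mg/mL (SE 0.34), 0.93 at 10 mg/mL (SE 0.34) and 0.74 at 20 mg/mL (SE 0.34), and 0.76 for the mean of the 3 doses (95% interval 0.17 to 1.36, SE 0.29). For that mean the edgeR p was 0.0144 unadjusted and 0.985 adjusted. At this unadjusted threshold, 2 of the 8 members passed for the mean of the doses at 6 days, against 3.14% of all genes.

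At 12 days the mean of the controls was the highest of the 4 groups. Il1b was at 55.3, 73.3 and 48.3 CPM in the control libraries, at 38.6, 45.8 and 38.5 CPM at 5 mg/mL, at 55.3, 38.5 and 42.5 CPM at 10 mg/mL, and at 28.4, 43.6 and 51.7 CPM at 20 mg/mL. All 3 libraries at 5 mg/mL were below every control, as 3.93% of all genes were, while at 10 and 20 mg/mL 1 library each reached into the range of the controls. On the log2 scale the difference from control was -0.52 at 5 mg/mL, -0.37 at 10 mg/mL, -0.51 at 20 mg/mL and -0.47 for the mean of the doses (95% interval -1.03 to 0.09, edgeR adjusted p = 0.9999). At 12 days, 1 of 8 members passed at an unadjusted p under 0.05 for this mean, Tnf, against 2.04% of all genes.

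The exposure effect on Il1b at 12 days minus that at 6 days was -1.23 on the log2 scale (95% interval -2.05 to -0.42, SE 0.39). Its edgeR p was 0.00461 unadjusted and 1 adjusted over all genes. For this difference 2 of the 8 members, Il1b and Tnf, had an unadjusted p under 0.05, against 1.79% of all genes, and 0 members and 0% of genes passed after adjustment. For the 20 mg/mL group alone, the same difference had 1 of 8 members at an unadjusted p under 0.05, Il1b, against 3.82% of all genes, and again 0 members and 0% of genes after adjustment. The controls of the 2 days enter this difference, and they were not level. Il1b averaged 58.9 ± 12.9 CPM in the 12-day controls and 35.1 ± 17.2 CPM in the 6-day controls (SD, n = 3 each), a log2 difference of 0.74 (95% interval 0.04 to 1.45, edgeR adjusted p = 0.9997). Exposed libraries of both days ranged from 27.6 to 91.7 CPM with a median of 48.8 CPM, and the 6 controls from 24.0 to 73.3 CPM with a median of 51.6 CPM. From lowest to highest group mean, Il1b ran from the 6-day controls to 10 mg/mL at 6 days (67.0 ± 24.7 CPM, SD, n = 3), and each of the 7 steps between neighbours was smaller than the larger of their SDs.

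The level of Il1b was higher in the libraries that detected few genes at 6 days, and less clearly so at 12 days. In the 8 libraries that detected the fewest it ranged from 51.7 to 91.7 CPM with a median of 63.8 CPM. The other 16 ranged from 24.0 to 73.3 CPM with a median of 42.4 CPM. By day, the ranges were 54.9 to 91.7 CPM against 24.0 to 57.4 CPM at 6 days. The 2 such libraries at 12 days, at 51.7 and 55.3 CPM, lay within the 28.4 to 73.3 CPM of the other 10. Of the 6 such libraries at 6 days, 5 were exposed and 1 was a control, the control with the highest Il1b. Those 6 had the highest red blood cell marker sums of the 24 libraries, 10430 to 20483 CPM over the 7 listed genes with a row, against 1516 to 9750 CPM in the other 18. Their neutrophil marker sums ranged from 599 to 989 CPM, against 223 to 640 CPM in the other 6 libraries of that day. Other lists were shifted as well. Alveolar epithelial sums ranged from 28102 to 37522 CPM against 21995 to 29686 CPM, and T and NK cell sums from 275 to 475 CPM against 181 to 356 CPM. Not every list did so, since the macrophage sums, 599 to 811 CPM, lay within the range of the other 6, 396 to 1384 CPM. The 2 such libraries at 12 days had 4544 and 4726 CPM of red blood cell markers. The part of these cells in the level of Il1b was not tested. With the number of detected genes added to the fit as a covariate, the mean effect of the doses at 6 days was 0.68 on the log2 scale (edgeR adjusted p = 0.9996). Without those 8 libraries it was 0.67, but only replicate 3 then remains at 5 mg/mL and at 10 mg/mL. The control at 54.9 CPM is also gone, which leaves controls at 26.5 and 24.0 CPM. For the same mean effect, limma voom with sample quality weights gave 1.14 with an adjusted p of 0.0226, a fit that called 827 genes. The range of that adjusted p over the 8 alternatives was 0.0226 to 1.

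**Figure D2:**
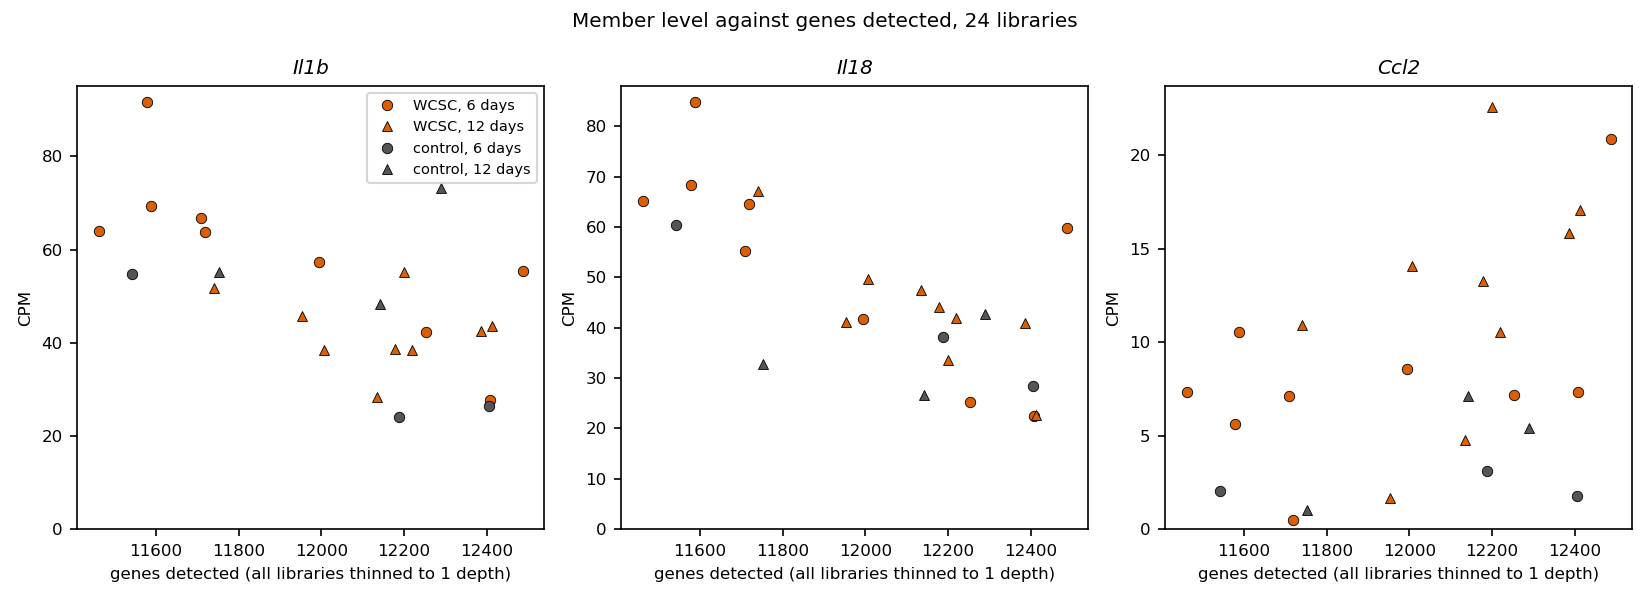
Level of Il1b, Il18 and Ccl2 in CPM against how many genes were detected after thinning to 1 depth, in each of the 24 libraries, with exposed libraries in orange, controls in grey, circles at 6 days and triangles at 12 days. The 8 libraries with 11461 to 11753 detected genes had Il1b at 51.7 to 91.7 CPM, while their Ccl2 spanned 0.484 to 10.9 CPM.

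Neutrophil markers, among them S100a8 and S100a9, were summed over 13 genes, of which 8 were tested. At 6 days the sum ranged from 499 to 771 CPM at 20 mg/mL, with Mmp8, Fpr1, Mpo and Elane at 0 throughout the group, against 223 to 812 CPM in controls, with Cxcr2 and Mmp8 at 0. At 12 days it ranged from 320 to 493 CPM at 20 mg/mL, with Cxcr2, Fpr1 and Elane at 0. The controls of that day ranged from 593 to 644 CPM, with Cxcr2, Fpr1 and Mpo at 0. On the same day the sum ranged from 197 to 562 CPM at 5 mg/mL and from 254 to 992 CPM at 10 mg/mL. The 992 CPM, in replicate 1, was the highest neutrophil sum of the 24 libraries, so 10 mg/mL was not wholly below the controls. Of the 8 tested markers, 7 had a positive fold change for the mean of the doses at 6 days, against 49% of all genes. The number at 12 days was 2, against 50.9% of all genes, and 0 passed the adjusted threshold on either day.

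Il1a encodes IL-1alpha, which is active without cleavage and is released by damaged cells. It was at 2.44, 8.10 and 6.91 CPM at 20 mg/mL at 6 days, against 5.50, 6.66 and 7.76 CPM in controls. In the 12-day libraries Il1a was at 9.13, 0.768 and 4.04 CPM at 20 mg/mL, against 7.09, 10.7 and 6.54 CPM in controls. Exposed and control libraries overlapped on both days, and the lowest library of all was replicate 2 of 20 mg/mL at 12 days, the library with the heart muscle markers. For the mean of the doses, the log2 fold change was 0.13 at 6 days (95% interval -0.85 to 1.12) and -0.62 at 12 days (95% interval -1.58 to 0.34). The 12-day value at 20 mg/mL was -0.81 with that library and -0.31 without it, and it was -1.69 without replicate 1 of the same group. None of the 9 exposed libraries at 12 days was above every control, and 5 were below every control.

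Il1rn encodes the IL-1 receptor antagonist. At 6 days it was at 59.4, 62.5 and 71.2 CPM at 20 mg/mL, against 52.8, 29.7 and 58.8 CPM in controls, so that all 3 libraries were above every control. The distance was small, since the lowest exposed library exceeded the highest control by less than the SD of either group. At 5 mg/mL it averaged 42.5 ± 9.21 CPM and at 10 mg/mL 41.2 ± 9.30 CPM, against 47.1 ± 15.4 CPM in controls (SD, n = 3 each). Il1b and Il1rn were therefore both above every control at 20 mg/mL, while at 10 mg/mL the mean of Il1b was above that of the controls and the mean of Il1rn below it. The log2 fold change of Il1rn was 0.45 at 20 mg/mL (95% interval -0.26 to 1.16, edgeR adjusted p = 0.9996) and 0.04 for the mean of the doses (95% interval -0.54 to 0.62). At 12 days it was at 56.7, 39.2 and 60.1 CPM at 20 mg/mL, against 49.8, 83.7 and 33.1 CPM in controls, with full overlap and a log2 fold change of -0.09 (95% interval -0.80 to 0.62).

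Macrophage markers were summed over 16 genes. The sum ranged from 775 to 1384 CPM at 20 mg/mL at 6 days, against 529 to 651 CPM in controls, with Marco at 0 in both groups. All 14 tested macrophage markers had a positive fold change in that comparison, as 49.6% of all genes did, and 7 had an unadjusted p under 0.05, against 4.07% of all genes. None of them passed the adjusted threshold. At 12 days the sum ranged from 572 to 890 CPM at 20 mg/mL, against 497 to 623 CPM in controls, with Marco again at 0. The 890 CPM came from replicate 2, the library with the heart muscle markers. Replicates 1 and 3, at 572 and 593 CPM, lay within the range of the controls. The part of macrophages in the level of Il1rn or of any other member was not tested.

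Il18 encodes IL-18, which drives interferon-gamma production by T and NK cells. At 6 days it was at 41.7, 64.6 and 59.7 CPM at 20 mg/mL, against 60.4, 28.4 and 38.2 CPM in controls. In the 12-day libraries Il18 was at 47.4, 22.7 and 67.2 CPM at 20 mg/mL, against 32.8, 42.7 and 26.6 CPM in controls. The groups overlapped on both days, and 8 of the 18 exposed libraries were above every control of their day. The mean of the doses gave a log2 fold change of 0.36 at 6 days (95% interval -0.36 to 1.07) and 0.35 at 12 days (95% interval -0.37 to 1.07). As for Il1b, the median was higher in those same 8 libraries, 32.8 to 84.9 CPM with a median of 64.9 CPM, than in the other 16, 22.5 to 59.7 CPM with a median of 41.0 CPM. Without those 8 libraries the mean effect of the doses at 6 days was -0.13, of the opposite sign. That fit has only replicate 3 at 5 mg/mL and at 10 mg/mL on that day. The log2 fold change of Il18 at 20 mg/mL at 12 days was 0.43. It was 0.76 without the library with the heart muscle markers, 0.043 without replicate 3 of the same group, and 0.0243 without the 8 libraries.

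Tnf encodes tumour necrosis factor, and it was the member with the fewest reads among those tested. At 12 days it had 2, 1 and 0 reads in the control libraries, 0, 26 and 8 reads at 5 mg/mL, 16, 12 and 9 reads at 10 mg/mL, and 10, 8 and 10 reads at 20 mg/mL. In CPM this was 0.405, 0.181 and 0 in controls, 0, 3.93 and 1.19 at 5 mg/mL, 2.27, 2.01 and 1.23 at 10 mg/mL, and 1.98, 1.54 and 1.22 at 20 mg/mL. All libraries at 10 and 20 mg/mL were above every control, as 3.91% and 3.57% of all genes were at these doses, and 1 library at 5 mg/mL had no read. Summed over 3 libraries, and divided by their scaled depth, Tnf had 34 reads at 5 mg/mL against 3 in controls, a ratio of 9.45 (95% interval 2.97 to 48.1), and 26 of the 34 reads came from replicate 2. The ratio was 10.7 (3.39 to 54.3) at 10 mg/mL, from 37 reads, and 8.95 (2.76 to 46.0) at 20 mg/mL, from 28 reads.

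These intervals are exact for the counting error only, and they do not include the spread between libraries. The fitted log2 fold change, which for so few reads depends on the prior count, was 3.12 at 5 mg/mL, 3.24 at 10 mg/mL, 3.01 at 20 mg/mL and 3.12 for the mean of the doses (95% interval 0.95 to 5.30). Without replicate 2 of 5 mg/mL the value at that dose was 1.60. The value for the mean was 4.11 without replicate 1 of the controls, 2.48 without replicate 3 of the controls and 2.61 without replicate 2 of 5 mg/mL. With all libraries, the edgeR p for that mean was 0.00686 unadjusted and 0.9999 adjusted.

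At 6 days the controls were not low. Tnf had 15, 14 and 10 reads at 20 mg/mL, against 21, 7 and 8 reads in controls, or 3.05, 1.69 and 1.28 CPM against 2.69, 0.951 and 1.13 CPM. The groups overlapped, and the fitted log2 fold change of the mean of the doses was 0.04 (95% interval -1.53 to 1.61). The exposure effect at 12 days minus that at 6 days was 3.08 (95% interval 0.47 to 5.69, edgeR adjusted p = 1).

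Tnf in the controls was at 0.195 ± 0.203 CPM at 12 days and at 1.59 ± 0.954 CPM at 6 days (SD, n = 3 each). All 3 control libraries of 12 days were below all 3 of 6 days, as 4.21% of all genes were. That log2 difference was -3.03 (95% interval -5.41 to -0.66, edgeR adjusted p = 0.9997). Tnf and Il1b were the 2 of 8 members with an unadjusted p under 0.05 between the controls, in opposite directions, against 2.48% of all genes, and 0 members and 0% of genes passed after adjustment. In the order of the group means the step from the 12-day controls to the next group, 5 mg/mL at 6 days (1.24 ± 0.949 CPM, SD, n = 3), was the 1 of 7 that exceeded the larger SD of the neighbours.

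**Figure D3:**
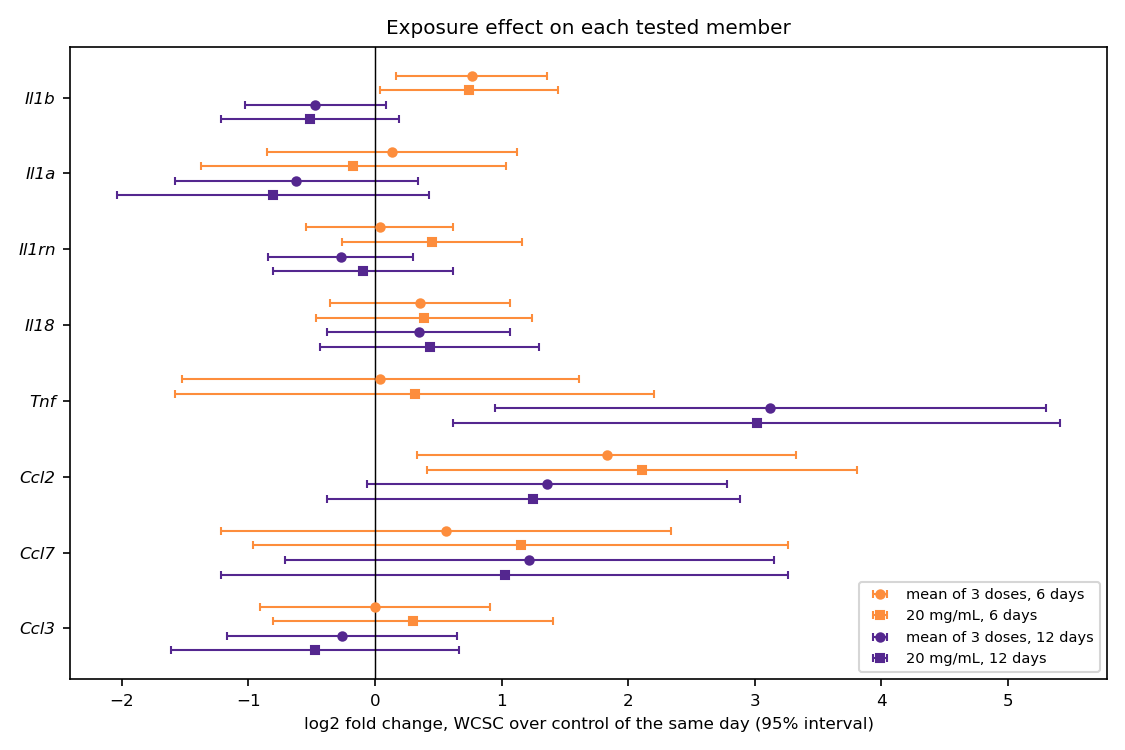
Log2 fold change of each tested member, WCSC over the control of the same day, with its 95% interval from the edgeR fit, for the mean of the 3 doses (circles) and for 20 mg/mL (squares) at 6 days (orange) and 12 days (purple). Il1b is at 0.76 at 6 days and -0.47 at 12 days for the mean of the doses, Tnf at 0.04 and 3.12, and Ccl2 at 1.83 and 1.36. No member passed the adjusted threshold.

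Ccl2 encodes CCL2, or monocyte chemoattractant protein, the chief ligand of CCR2. At 6 days it was at 2.05, 1.77 and 3.10 CPM in the control libraries, at 10.5, 7.32 and 7.31 CPM at 5 mg/mL, at 5.64, 7.10 and 7.17 CPM at 10 mg/mL, and at 8.55, 0.484 and 20.8 CPM at 20 mg/mL. All libraries at 5 and 10 mg/mL were above every control, as 4.17% and 2.98% of all genes were, while replicate 2 of 20 mg/mL, with 4 reads, was below every control. At 12 days Ccl2 was at 1.01, 5.43 and 7.09 CPM in controls, at 13.3, 1.66 and 10.6 CPM at 5 mg/mL, at 22.6, 14.1 and 15.8 CPM at 10 mg/mL, and at 4.76, 17.1 and 10.9 CPM at 20 mg/mL. At 12 days only the 10 mg/mL group was wholly above the controls, as 3.91% of all genes were, and the other doses had 1 library each within their range.

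Over both days, 15 of the 18 exposed libraries had more Ccl2 than every control of their day, with a median of 9.53 CPM, against 2.58 CPM in the 6 controls. The log2 fold change at 6 days was 1.86 at 5 mg/mL, 1.52 at 10 mg/mL, 2.11 at 20 mg/mL and 1.83 for the mean of the doses (95% interval 0.33 to 3.33). The 6-day value at 20 mg/mL was 0.91 without replicate 3, the library at 20.8 CPM, and 2.67 without replicate 2, and voom with quality weights gave 0.55. At 12 days it was 0.90 at 5 mg/mL, 1.93 at 10 mg/mL, 1.25 at 20 mg/mL and 1.36 for the mean (95% interval -0.06 to 2.78). The 12-day value at 20 mg/mL was 0.79 without the library with the heart muscle markers and 0.80 without replicate 1 of the controls. For the mean of the doses at 12 days, leaving out that control gave 0.91. Averaged over the doses and both days the change was 1.59, or 3.02-fold (95% interval 0.56 to 2.63 on the log2 scale, SE 0.50). The edgeR p of this average was 0.00409 unadjusted and 0.989 adjusted. For it, 2 of the 8 members, Ccl2 and Tnf, had an unadjusted p under 0.05, against 3.24% of all genes, and 0 members and 0% of genes passed after adjustment.

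The means of Ccl2 did not follow the order of the doses. The highest was 17.5 ± 4.50 CPM at 10 mg/mL at 12 days, above 10.9 ± 6.17 CPM at 20 mg/mL at 12 days (SD, n = 3 each), the only step between neighbours that exceeded the larger SD. A slope linear in dose gave 1.70 on the log2 scale over the range of doses at 6 days (95% interval 0.15 to 3.25) and 1.20 at 12 days (95% interval -0.32 to 2.72). Of the 8 members, 1 had an unadjusted p under 0.05 for the slope on each day, Ccl2 at 6 days (4.87% of all genes) and Tnf at 12 days (4.36%). The adjusted edgeR threshold was passed by 0 members on either day, and by 0.00875% of genes at 6 days, which is the single gene Cebpd, and 0% at 12 days. Unlike Il1b, Ccl2 was not higher in the libraries with few detected genes, where its median was 6.37 CPM, against 7.93 CPM in the other 16.

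Ccl7 encodes CCL7, another ligand of CCR2, and is the neighbour of Ccl2 on rat chromosome 10 in the RefSeq annotation. At 6 days it was at 2.85, 0.242 and 26.9 CPM at 20 mg/mL, against 9.72, 0.543 and 3.24 CPM in controls. The mean of 9.98 ± 14.7 CPM at 20 mg/mL (SD, n = 3) rested on replicate 3, which was also the highest library for Ccl2 at 6 days. That library had the highest macrophage marker sum of the 24, at 1384 CPM against at most 890 CPM in the others, the lowest red blood cell marker sum, at 1516 CPM, and 1716 CPM of endothelial markers, the lowest but 1. Their part in its Ccl2 and Ccl7 was not tested. At 20 mg/mL the log2 fold change was 1.15 (95% interval -0.96 to 3.26), and -1.64 without that library. At 12 days Ccl7 was at 1.79, 10.2 and 2.45 CPM at 20 mg/mL, against 1.62, 3.44 and 1.95 CPM in controls, with a log2 fold change of 1.02 (95% interval -1.22 to 3.26). Without replicate 2 of 20 mg/mL it was -0.13.

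Over the 24 libraries Ccl2 and Ccl7 had a Pearson r of 0.643 and a Spearman rho of 0.57 on log2 CPM, the highest r among the 28 pairs of tested members. This is a description over libraries that share groups and depth. Replicate 2 of 20 mg/mL at 6 days was the lowest library for both chemokines. Il1b and Il18 had the next highest r, at 0.559, and these 2 genes also shared their higher level in the libraries with few detected genes. Ccl2 and Ccl3 had the lowest, at -0.488.

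**Figure D4:**
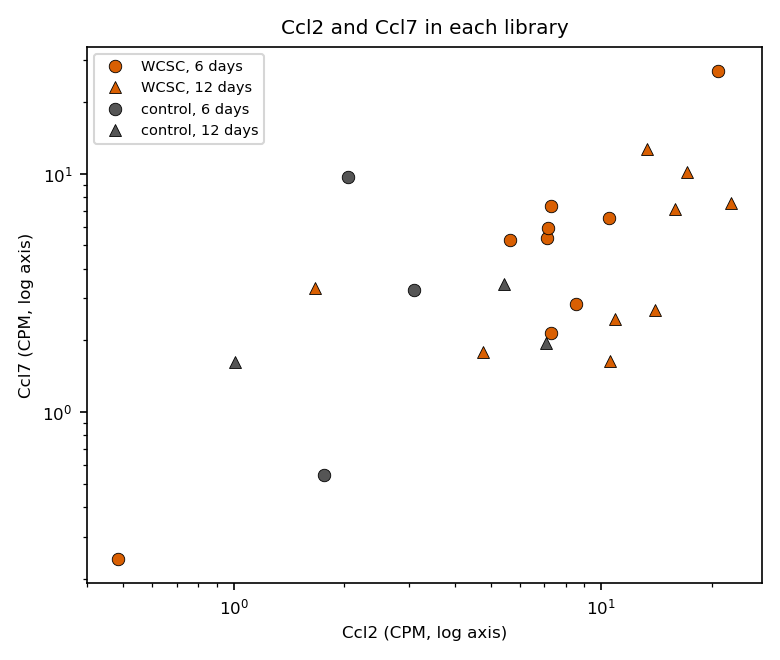
Level of Ccl7 against that of Ccl2 in CPM on log axes, with 1 point for each of the 24 libraries, exposed in orange and controls in grey, circles at 6 days and triangles at 12 days. The library at the lower left, with 0.484 CPM of Ccl2 and 0.242 CPM of Ccl7, and the one at the upper right, with 20.8 and 26.9 CPM, are both of the 20 mg/mL group at 6 days.

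Ccl3 encodes CCL3, also called macrophage inflammatory protein 1 alpha. At 6 days it was at 9.77, 24.8 and 11.6 CPM at 20 mg/mL, against 14.2, 9.10 and 14.4 CPM in controls, and at 12 days at 12.9, 5.38 and 7.71 CPM at 20 mg/mL, against 21.9, 8.14 and 6.26 CPM in controls. Exposed and control libraries overlapped at every dose. The log2 fold change of the mean of the doses was 0.00 at 6 days (95% interval -0.90 to 0.91) and -0.26 at 12 days (95% interval -1.17 to 0.65). The interval at 6 days includes the 0.76 seen for Il1b. The median of Ccl3 was 15.1 CPM in the 8 libraries that detected fewest genes, against 9.43 CPM in the other 16.

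Ccl4, which encodes CCL4 and lies beside Ccl3, had 0, 0 and 0 reads at 20 mg/mL at 6 days, against 1, 4 and 1 reads in controls. With no read in 3 libraries, levels of up to 0.61, 0.363 and 0.384 CPM remain possible in them, the level of 3 reads. At 12 days it had 5, 3 and 7 reads at 20 mg/mL, against 0, 3 and 9 reads in controls. Summed over 3 libraries and divided by their scaled depth, the ratio at 20 mg/mL to control at 6 days was 0 (95% interval 0 to 0.9), from 0 reads against 6. At 5 mg/mL at 12 days 1 read stood against 12 in controls, a ratio of 0.0695 (95% interval 0.00163 to 0.470), and 9 of those 12 reads came from 1 control library. As for Tnf, these intervals and limits cover counting error only. When genes of low count were kept in the edgeR fit, the lowest adjusted p of Ccl4 in any comparison was 0.929.

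Genes of the same pathways were followed in 6 lists. None of their tested members passed the adjusted threshold at 20 mg/mL or for the mean of the doses on either day (edgeR). Of the IL-1 and IL-18 receptor and signalling list, 11 of 20 genes were tested, and the median log2 fold change of the mean of the doses was -0.25 at 6 days, with 3 higher and 8 lower, and -0.24 at 12 days, with 4 higher and 7 lower. The median over all tested genes was -0.01 at 6 days and 0.00 at 12 days. Il1rap, the accessory chain that the IL-1 receptor needs to signal, was at 0.198 ± 0.344 CPM at 20 mg/mL at 12 days, against 2.09 ± 1.41 CPM in controls. The exposed mean lay below the level of 3 reads, which is 0.367 to 0.595 CPM in those libraries. The log2 fold change was -3.44 (SE 1.32, edgeR adjusted p = 0.9985). Irak3, an inhibitor of IL-1 receptor signalling in macrophages, was at 10.1 ± 1.13 CPM at 20 mg/mL at 6 days, against 6.63 ± 3.71 CPM in controls (SD, n = 3 each).

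In the inflammasome and processing list, 10 of 11 genes were tested, with a median of 0.26 at 6 days (7 higher, 3 lower) and -0.10 at 12 days (2 higher, 8 lower) for the mean of the doses. P2rx7, the ATP-gated channel whose opening triggers the NLRP3 inflammasome and the release of IL-1beta, was at 7.07 ± 2.33 CPM over the 9 exposed libraries at 12 days, against 19.4 ± 2.26 CPM in the 3 controls (SD). For the mean of the doses its log2 fold change was -1.47 (SE 0.34, edgeR adjusted p = 0.9999). The 20 mg/mL group alone was at 8.88 ± 0.77 CPM (SD, n = 3). Its log2 fold change was smaller, at -1.12 (SE 0.45, edgeR adjusted p = 0.9985). As for Il1b, the controls of the 2 days were not level, with 19.4 ± 2.26 CPM at 12 days and 7.10 ± 3.00 CPM at 6 days (SD, n = 3 each). Adam17, which releases TNF from the cell surface, was at 350 ± 15.6 CPM at 20 mg/mL at 6 days, against 279 ± 64.8 CPM in controls (SD, n = 3 each).

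In the TNF receptor and signalling list, 18 of 22 genes were tested, with a median of 0.02 at 6 days (10 higher, 8 lower) and -0.01 at 12 days (8 higher, 10 lower). Nfkbia encodes the inhibitor that holds NF-kappaB in the cytoplasm and is itself an NF-kappaB target. It was at 804 ± 154 CPM at 20 mg/mL at 6 days, against 1797 ± 181 CPM in controls (SD, n = 3 each). On the log2 scale that is -1.16 (SE 0.28, edgeR adjusted p = 0.705). In the same comparison 7 of the 8 members had a positive fold change, as 49.6% of all genes did. For the mean of the doses Nfkbia was at -0.82 on the log2 scale at 6 days (SE 0.22) and at -0.54 at 12 days (SE 0.22). In these comparisons 8 members were higher and 0 lower at 6 days. The members at 12 days were 4 higher and 4 lower, with Il1b among the lower at -0.47. A link between Nfkbia and the members was not tested. Nfkb1, which encodes the p105 precursor of an NF-kappaB subunit, was at 39.7 ± 9.57 CPM at 20 mg/mL at 12 days, against 71.6 ± 25.1 CPM in controls (SD, n = 3 each).

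Other CC and CX3C chemokines had 12 of 15 genes tested, with a median of 0.17 at 6 days and 0.14 at 12 days, 8 higher and 4 lower on both days. Ccl24, an eosinophil attractant, was at 3.42 ± 2.89 CPM at 20 mg/mL at 6 days, against 6.71 ± 3.48 CPM in controls. Ccl20, which attracts cells with the receptor CCR6, was at 12.1 ± 19.8 CPM at 20 mg/mL at 12 days, against 0.594 ± 0.550 CPM in controls (SD, n = 3 each), so that its SD exceeded its mean in the exposed group.

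Of the chemokine receptors other than Ccr2, 10 of 20 were tested, with a median of 0.13 at 6 days and -0.05 at 12 days. Cx3cr1, the fractalkine receptor of resident and patrolling monocytes, was at 3.80 ± 1.39 CPM at 20 mg/mL at 6 days, against 1.63 ± 1.17 CPM in controls. Ccr6 was at 24.0 ± 19.2 CPM at 20 mg/mL at 12 days, against 16.1 ± 5.55 CPM in controls (SD, n = 3 each).

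Of the other inflammatory cytokines, 7 of 21 were tested, with a median of 0.11 at 6 days and -0.11 at 12 days. Il23a, a subunit of IL-23, was at 0.941 ± 0.714 CPM at 20 mg/mL at 6 days, against 2.34 ± 1.61 CPM in controls. Il15, a growth factor of NK cells, was at 0.892 ± 0.442 CPM at 20 mg/mL at 12 days, against 1.82 ± 2.08 CPM in controls (SD, n = 3 each).

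Monocyte markers, the cells that CCL2 and CCL7 attract, had a sum over 14 genes of 1203 to 1630 CPM at 20 mg/mL at 6 days, with none of the genes at 0 in the whole group, against 948 to 1533 CPM in controls, where Itgam was at 0. At 12 days the sum was 1055 to 1527 CPM at 20 mg/mL, with Itgam at 0, against 1032 to 1381 CPM in controls, with none at 0. The ranges overlapped on both days. Of the 13 tested monocyte markers, 10 had a positive fold change at 20 mg/mL at 6 days, against 49.6% of all genes. The number at 12 days was 8, against 51.4% of all genes, and 0 passed the adjusted threshold.

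The tested gene most like each of 7 members over the 24 libraries, by Pearson r of log2 CPM, was Tspo for Il1b (r 0.826, Spearman rho 0.845), Aqp5 for Il1a (r 0.733, rho 0.601) and Eif3f for Il18 (r 0.873, rho 0.891). It was Trub1 for Tnf (r 0.684, rho 0.693), Igtp for Ccl2 (r 0.838, rho 0.743), Ripk3 for Ccl7 (r 0.722, rho 0.665) and Ctsd for Ccl3 (r 0.753, rho 0.76). Each was picked as the highest of all tested genes over libraries that share depth and groups, so these are descriptions. The genes that came next were Fig4 and Ndufa7 for Il1b, Aloxe3 and Kif1c for Il1a, and Igsf6 and Ppt1 for Il18. They were Kdelr3 and Letm1 for Tnf, Sf3b5 and Cks1b for Ccl2, Trpm4 and Tacc3 for Ccl7, and Tmem140 and Timm17b for Ccl3. For Il1a, the rho of Aloxe3 (r 0.716) was only 0.415 and that of Kif1c (r 0.695) was 0.52. Il1a was lowest in the library with the heart muscle markers, whose part in these r values was not tested. No other member was among the 3 genes most like any member.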

How the data were processed

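RNA was measured in 24 rat lung libraries. Libraries were made from Trizol-extracted total RNA with a Lexogen QuantSeq kit, per the labels' protocols. The kit reads transcript ends, so levels are not divided by gene length and are compared between libraries, not between genes. Bowtie2, bedtools and build rn6 are named in the submitters' processing notes, and for versions, annotation and strand setting the sources used here give nothing. The authors deposited raw read counts per gene symbol, 1 table per library. Each table had 17048 lines, of which the 167 that repeat a symbol (0.982% of counts) were left out.

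Counts were fitted with edgeR 4.0.16 in R 4.3.3 (TMM factors 0.805 to 1.12, filterByExpr by group, quasi-likelihood) in 1 model of the 8 group means, with 16 residual degrees of freedom and a common biological coefficient of variation of 0.335. Tests were two-sided, adjusted by Benjamini-Hochberg over the 11426 genes, with a threshold of 0.05. Intervals are 95%. Likeness used log2 CPM with a prior count of 2. Libraries were thinned to 4746678 reads to count detected genes. No pair of the libraries was identical, and r within groups ranged from 0.912 to 0.971. As a check of the code, the fit was run on counts drawn independently for each library from mean levels and the fitted dispersions. That run lacks the differences in detected genes and cell markers between these libraries, so no conclusion is drawn from it. Alternatives were RLE scaling, no filter, DESeq2 1.42.0, limma 3.58.1 voom with sample quality weights, a replicate block, detected genes as a covariate, leaving out the 8 libraries with the fewest, fitting only the groups compared, and leaving out each library.

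All 10 members are named whatever their p, with the gene of smallest p at 20 mg/mL from each pathway list and the 3 genes most like each member, which for Il1rn are not reported here. P2rx7 was also given for the mean of the doses and between the controls, chosen after its values were seen. Nfkbia was also given for the mean of the doses, which the rule at 20 mg/mL does not cover. The members and lists were chosen with earlier results of these data known. The difference between the days and the mean of both days for the 3 doses together were compared after seeing the data.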

Additional observations from a re-analysis of the deposited data

How the results depend on the processing

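Of 801 recomputed log2 fold changes of members, 761 kept their sign, and 1 crossed the adjusted threshold, Il1b for the mean of the doses at 6 days (1.14 with voom and quality weights). The cause was not tested. The number of members called was 0 in all other settings. Signs reversed as follows. For the mean of the doses at 6 days, Ccl3 (0.00) was -5e-04 by DESeq2, -0.087 with the replicate block, -0.23 with the covariate and -0.68 without the 8 libraries. In the same comparison Il1a was -0.10 with voom and -0.068 without the 8 libraries, Il1rn -0.0079 with the covariate and -0.10 without the 8, and Il18 -0.13 without the 8. For the mean at 12 days Ccl3 was 0.30 with voom and 0.51 without the 8. At 20 mg/mL, Ccl3 was -0.14 at 6 days and 0.35 at 12 days without the 8, and 0.29 at 12 days with voom. Il1rn at 20 mg/mL at 12 days was 0.22 with voom and 0.003 with the replicate block.

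Leaving out 1 library reversed 24 values. At 20 mg/mL at 6 days the values then ranged from -0.48 to 0.18 for Il1a, -0.10 to 0.92 for Tnf, -1.64 to 2.40 for Ccl7 and -0.23 to 0.54 for Ccl3. At 20 mg/mL at 12 days they ranged from -0.36 to 0.33 for Il1rn, -0.13 to 1.41 for Ccl7 and -0.87 to 0.26 for Ccl3. For the mean of the doses at 6 days they ranged from -7e-04 to 0.26 for Il1a, -0.21 to 0.23 for Il1rn, -0.22 to 0.65 for Tnf, -0.37 to 1.81 for Ccl7 and -0.18 to 0.12 for Ccl3. At 12 days they ranged from -0.54 to 0.15 for Il1rn and -0.57 to 0.48 for Ccl3. Ccl2 averaged over both days stayed between 1.37 and 1.84 (1.10 to 1.63 in the other settings), and the difference between the days between -1.71 and -1.02 for Il1b and between 2.43 and 4.07 for Tnf.

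Counts of all genes called moved as follows, from 0 except for the slope at 6 days, which called 1. At 20 mg/mL at 6 days, RLE, no filter, the replicate block and the covariate called 1 gene each, voom 2, and DESeq2 and the fit without the 8 libraries 3. DESeq2 called 2 genes at 5 mg/mL at 6 days, 1 each at 5 and 10 mg/mL at 12 days, 4 at 20 mg/mL at 12 days, 2 for the mean at 6 days, 7 and 11 for the slopes at 6 and 12 days, and 4 for the mean of both days. Voom called 5 at 10 mg/mL at 6 days, 2 at 20 mg/mL at 12 days, 827 (1 member) and 1 for the means at 6 and 12 days, 2 and 3 for the slopes, and 22 for the mean of both days. Without the 8 libraries there was 1 at 10 mg/mL at 12 days, 2 and 1 for the slopes, and 2 for the mean of both days. Fitting only the groups compared gave 2 at 10 mg/mL and 1 at 20 mg/mL at 12 days, and 0 and 1 for the slopes. Leaving out 1 library gave 0 to 2 at 5 mg/mL at 6 days, 0 to 2 for the slope at 6 days, and 0 to 3 for the mean of both days.

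The labels do not state that the replicate numbers pair the libraries, and the main fit does not use them. At 6 days same-numbered libraries were the more alike, with deviations correlated from -0.184 to 0.590 and 10 of 18 pairs over 0.1. Their median was 0.173, against -0.105 for differently numbered pairs, of which 10 of 36 were over 0.1. No replicate 3 of that day was among the 8 libraries with the fewest detected genes. Replicates 1 and 2 of 5 and 10 mg/mL were among them, so the numbers follow that split in part. Whether the libraries were paired was not tested. At 12 days same-numbered pairs ranged from -0.156 to 0.204, with 4 of 18 over 0.1, against 6 of 36 for differently numbered pairs. With the number as a block within day, Il1b for the mean of the doses at 6 days was 0.80 (edgeR adjusted p = 0.840), and Ccl2 over both days was 1.61 (edgeR adjusted p = 0.886). Depth limits Tnf and Ccl4 most, where 3 reads are 0.295 to 0.61 CPM.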
